A study of Homo sapiens with 6 samples.

Results

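The caveolin and cavin genes described here are CAV1, CAV2, CAVIN1, CAVIN3 and EHD2, 5 of the 20026 genes kept from the tables of HCT116 cells that over-express the transcription factor TEAD4. They were taken as rows by gene symbol, as a family whose levels were already known to differ between these libraries. Their levels are therefore given as a description, with no test. CAVIN1 is also known as PTRF and CAVIN3 as PRKCDBP, and both were present under their current symbols.

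HCT116 is a human colorectal carcinoma cell line. RNA of 3 stable lines was sequenced, with 2 libraries each: cells with the K178R mutant of TEAD4, cells with wild type TEAD4, and control cells. The 3 lines share the HCT116 background, and the labels name no treatment, vector or time. They do not say whether a line was 1 clone or a pool. Whether the pair of libraries per line stands for separate cultures is not said either, so p-values below reflect only how far the libraries of a pair lie apart, a spread that may be technical. K178R replaces a lysine by an arginine. One wild type library, replicate 2, is entered with the genotype TEAD5, while its title names wild type TEAD4, and it was kept with the wild type line.

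Caveolae are flask-shaped pits of the plasma membrane. Caveolins insert into the inner leaflet and build the coat from inside, cavins assemble on it from the cytosol, and ATPases and curvature proteins hold its neck. Caveolae are abundant in fat cells, endothelium and smooth muscle, where they buffer membrane tension and gather signalling proteins. TEAD4 binds DNA as a partner of YAP1 and TAZ, the coactivators of the Hippo pathway, and caveolin genes have been described as targets of YAP and TEAD in other cells.

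Values are FPKM, fragments scaled by transcript length and by library size, so levels may be set side by side between genes. Differences are on the log2(FPKM + 1) scale, tested line over its comparator, and understate the change of genes with low values. TEAD4 read 71.2 and 72.3 FPKM in the K178R libraries, 86.4 and 84.4 in the wild type libraries, and 16.6 and 17.5 in the control libraries, which agrees in direction with the labels but does not separate introduced from endogenous TEAD4. Over all genes above 10 FPKM, the libraries of a pair differed by a median of 0.0389 to 0.0426 on the log2 scale, and the means of 2 lines by 0.0818 to 0.128. Across the 11445 genes tested the median difference was 0.09 for wild type against control, 0.0025 for K178R against control and -0.08 for K178R against wild type. By limma 4309 genes were higher and 1402 lower in the wild type line, and 2564 and 2886 after median-of-ratios scaling, which moved the median of all genes by -0.10. For K178R against wild type 1187 were higher and 3952 lower, and 2602 and 2257 after that scaling. For K178R against control 1342 were higher and 1268 lower. FPKM totals lay between 283195 and 305329 per library, and the number of reads is unknown. Of 10 markers of colon epithelial cells, 6 were present (EPCAM, KRT8, KRT18, KRT19, CDH1 and CDX2), while CDX1 and CEACAM5 were at 0 and VIL1 and LGALS4 under 0.15 FPKM in every library.

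CAV1 and CAV2 lie next to each other on chromosome 7, and their promoters are shown because these genes had the largest differences in the family. RefSeq promoters (GRCh38.p14) were found for 3 of the 5 members, CAV1, CAV2 and EHD2. Given are the 250 bases before the most upstream annotated start, plus strand, with CAV1 at chr7:116524759-116525008 and CAV2 at chr7:116499488-116499737. Capitals mark GGGCGG, the core letters of the SP1 box, or its complement.
CAV1: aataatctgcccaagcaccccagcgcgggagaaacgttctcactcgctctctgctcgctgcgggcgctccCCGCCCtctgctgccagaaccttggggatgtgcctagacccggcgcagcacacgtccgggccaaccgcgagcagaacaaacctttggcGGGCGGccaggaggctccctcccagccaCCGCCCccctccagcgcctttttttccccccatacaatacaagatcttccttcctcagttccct
CAV2: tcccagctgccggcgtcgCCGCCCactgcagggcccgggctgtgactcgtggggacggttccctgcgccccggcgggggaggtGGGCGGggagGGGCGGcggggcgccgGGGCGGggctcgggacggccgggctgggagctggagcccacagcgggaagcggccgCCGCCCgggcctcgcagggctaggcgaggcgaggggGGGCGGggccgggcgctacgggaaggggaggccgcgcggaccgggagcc
The letters GGGCGG, on either strand, occurred 3 times before CAV1, 6 times before CAV2 and 1 time before EHD2. They occurred in 42.2% of 27305 promoters of the same length. GGAATG, the core of the TEAD motif, had 0 matches on either strand in the windows of CAV1, CAV2 and EHD2, and was present in 11.95% of all promoters. TGANTCA, the AP-1 motif, also had 0 matches in these windows, and was present in 6.57% of all. None of the GGGCGG matches overlapped another. GC content was 63.6% before CAV1, 83.2% before CAV2 and 69.6% before EHD2, against a median of 57.6% over all promoters with quartiles of 46.0% and 67.6%. Nothing about a factor's binding follows from letters in these windows.

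CAV1, the main coat protein of caveolae in most tissues, read 37.9 and 38.8 FPKM in the K178R libraries, 35.6 and 32.3 in the wild type libraries, and 125 and 129.9 in the control libraries. All 4 libraries with added TEAD4 were low, and both control libraries were high with no overlap. The mean was 38.3 ± 0.615 FPKM with K178R, 33.9 ± 2.34 with wild type and 127 ± 3.48 in control (SD, n = 2 each). The wild type mean was 0.266 of the control mean, 73.4% lower, a difference of -1.88 on the log2 scale (SE 0.05). SE here and below is limma's, pooled over the 3 lines and moderated by the trend of all genes, not the gene's own spread. The K178R mean was 0.301 of the control mean, 69.9% lower (log2 -1.71, SE 0.05). By size of difference, CAV1 was the 4th lowest of the 11445 genes tested in the wild type line and the 6th lowest in the K178R line. Between the TEAD4 lines the gap was small, with K178R 1.13 times the wild type mean (log2 0.17), and the pairs did not overlap. That gap was 0.10 or 0.24 when 1 wild type library was left out, and 0.28 after median-of-ratios scaling. In bulk RNA, fewer cells that make a transcript and less of it per cell cannot be told apart.

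CAV2, which needs CAV1 to reach the cell surface and joins it in hetero-oligomers, read 15.8 and 17.3 FPKM with K178R, 20.0 and 19.2 with wild type, and 44.8 and 45.5 in control. Again the 2 control libraries stood well above the other 4. The wild type mean was 0.434 of the control mean (log2 -1.17, SE 0.05) and the K178R mean 0.367 of it (log2 -1.40, SE 0.05). CAV2 was thus the 20th lowest difference of all genes tested in the wild type line and the 14th lowest in the K178R line. In contrast to CAV1, CAV2 was lower with K178R than with wild type TEAD4, at 0.846 of the wild type mean (log2 -0.23), and the pairs did not overlap. The difference was -0.12 after median-of-ratios scaling. An annotated transcript on the opposite strand shares 76 exon bases with CAV2, and the authors' use of strand is not given in the sources used here, so reads of the pair may be mixed.

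CAVIN1, the cavin without which caveolae do not form, did not share the low levels of the caveolins. It read 54.5 and 55.2 FPKM with K178R, 44.0 and 46.0 with wild type, and 50.5 and 51.7 in control. The 3 pairs did not overlap, with control in the middle. The wild type mean was 0.881 of control (log2 -0.18, SE 0.03), and the K178R mean 1.07 of control (log2 0.10, SE 0.03). K178R stood at 1.22 times wild type (log2 0.28), the 356th highest difference of the genes tested. After median-of-ratios scaling the difference of wild type from control was -0.30.

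CAVIN3, which binds CAVIN1 and was first described as a binding protein of protein kinase C delta, was the member with the lowest level. It read 3.39 and 3.57 FPKM with K178R, 3.25 and 3.65 with wild type, and 5.39 and 7.43 in control. The control libraries were both above the other 4, and lay further apart from each other than those of any other line. The wild type mean was 0.538 of control (log2 -0.72, SE 0.12) and the K178R mean 0.543 of control (log2 -0.71, SE 0.12). The TEAD4 lines overlapped. Leaving out 1 control library moved the wild type difference between -0.92 and -0.53 and the K178R difference between -0.91 and -0.51. A gene on the opposite strand shares 557 exon bases with CAVIN3, with the same doubt on strand as for CAV2.

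EHD2, the ATPase that rings the neck and holds caveolae at the surface, read 20.9 and 19.2 FPKM with K178R, 20.5 and 19.8 with wild type, and 23.2 and 24.4 in control. The control pair was above both other pairs, which overlapped. The wild type mean was 0.845 of control (log2 -0.23) and the K178R mean 0.842 of control (log2 -0.24), so its difference was the smallest of the 4 members that were low in both lines. After median-of-ratios scaling the difference of wild type from control was -0.35.

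**Figure D1:**
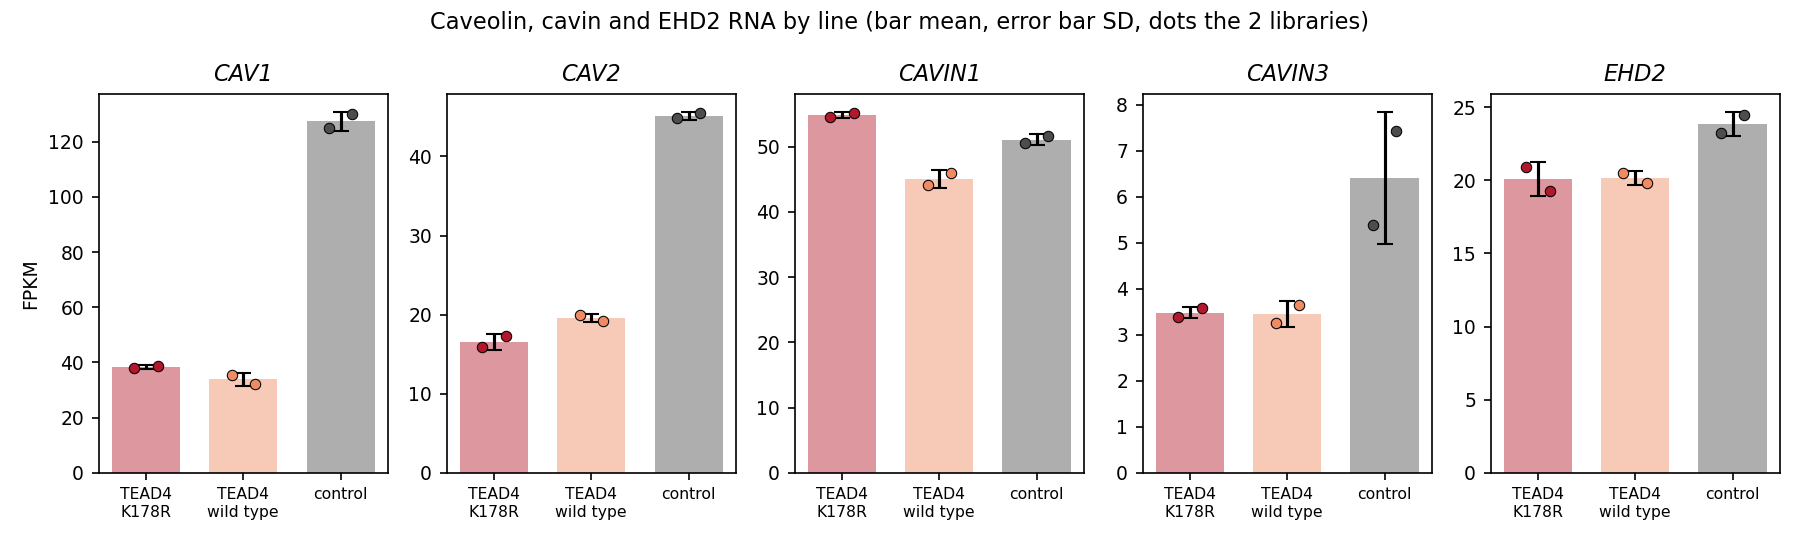
FPKM (y axis, from 0, a separate scale per gene) of the 5 members in the K178R, wild type and control lines (x axis), with bars for means, error bars for SD and dots for the 2 libraries. Both control libraries of CAV1 (125 and 129.9) and CAV2 (44.8 and 45.5) stand far above the other 4, while CAVIN1 lies between 44.0 and 55.2 FPKM throughout.

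All 5 members passed the filter on low values in every library. Against control, 5 of 5 were lower without overlap in the wild type line and 0 higher, where 21.9% of all genes tested were lower and 54.9% higher. The choice of members used these values, so nothing is read from their counts. In the K178R line 4 of 5 were lower without overlap, where 30.3% of all genes were, and CAVIN1 was higher, as 32.7% of all genes were. For K178R against wild type, CAV1 and CAVIN1 were higher without overlap (21.5% of all genes), CAV2 was lower (52.7% of all genes), and CAVIN3 and EHD2 overlapped. The median difference of the members was -0.72 for wild type against control, -0.71 for K178R against control and 0.01 for K178R against wild type. The comparisons with control share the control libraries.

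The order of the members by level changed with the lines. With K178R it was CAVIN1, CAV1, EHD2, CAV2 and CAVIN3, with no overlap between neighbours in that order. The wild type line had the same order, with EHD2 and CAV2 overlapping. In control cells CAV1 led, followed by CAVIN1, CAV2, EHD2 and CAVIN3, again with no overlap.

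Ratios within a library do not depend on its scaling. CAVIN1 stood at 1.43 ± 0.00932 times CAV1 in the K178R line, 1.33 ± 0.133 times in the wild type line and 0.401 ± 0.00442 times in control (SD, n = 2 each). CAV2 stood at 0.432 ± 0.0198 of CAV1 with K178R, 0.578 ± 0.0249 with wild type and 0.354 ± 0.00569 in control. The 3 lines did not overlap in the ratio of the caveolins, and CAV2 was higher relative to CAV1 in both TEAD4 lines than in control, more so with wild type TEAD4. EHD2 stood at 0.524 ± 0.0395 of CAV1 with K178R, 0.595 ± 0.0271 with wild type and 0.187 ± 0.00154 in control. CAVIN3 stood at 0.0635 ± 0.0017 of CAVIN1 with K178R, 0.0765 ± 0.00387 with wild type and 0.125 ± 0.0261 in control.

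**Figure D2:**
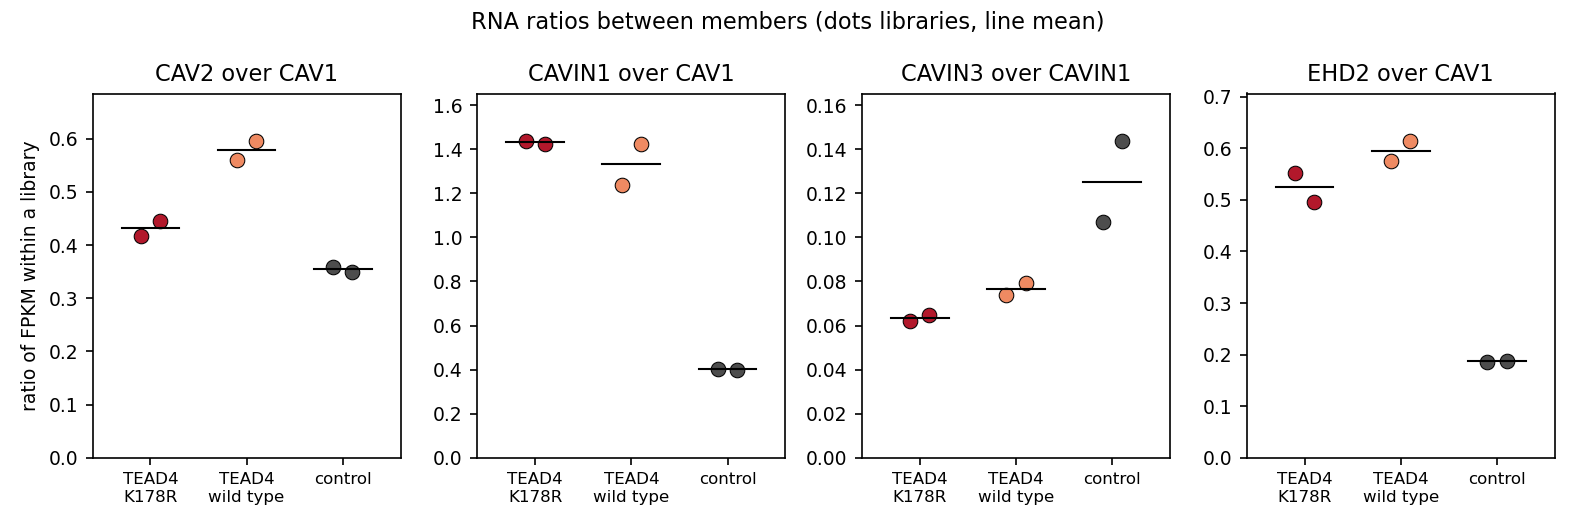
Ratio of FPKM between members within a library (y axis, from 0, a separate scale per ratio) in the K178R, wild type and control lines (x axis), with dots for libraries and lines for means. CAVIN1 over CAV1 is 0.398 and 0.404 in the control libraries and between 1.24 and 1.44 in the other 4.

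Likeness was measured as the root mean square difference over the 6 libraries, after each gene's control mean was taken off on the log2(FPKM + 1) scale, so that 0 is an identical profile. Among the members, CAVIN1 and EHD2 were most alike (0.204), then CAVIN3 and EHD2 (0.412) and CAV1 and CAV2 (0.452). The measure is not scaled by the size of a change, so genes that change little lie close. With K178R, CAVIN1 was above control (log2 0.10) and EHD2 below it (log2 -0.24). CAV1 and CAVIN1 were least alike (1.43). Of the other genes, the 4 nearest to CAV1 were KRT13 (0.094), ABCC2 (0.21), PKIB (0.289) and SEMA3C (0.327). KRT13, a keratin, read 1.08 and 0.776 FPKM with K178R, 0.764 and 0.807 with wild type, and 5.31 and 5.61 in control. ABCC2, an efflux transporter, averaged 5.62 ± 0.43 FPKM with K178R, 5.03 ± 0.278 with wild type and 17.6 ± 0.0154 in control. Both stayed low in all 4 libraries with added TEAD4. By FPKM, KRT13, PKIB and SEMA3C lay further below control than CAV1 did in both lines, which the pseudocount of 1 hides at their low values. Nearest to CAV2 were ADGRF1 (0.102), RUNX2 (0.124), NECTIN3 (0.13) and SEMA3C (0.171). ADGRF1 averaged 0.181 ± 0.0143 FPKM with K178R, 0.428 ± 0.184 with wild type and 2.24 ± 0.0342 in control, and RUNX2 0.109 ± 0.0177 with K178R, 0.322 ± 0.0181 with wild type and 2.23 ± 0.218 in control. By FPKM both lay further below control than CAV2 did, since the pseudocount of 1 shrinks differences of low genes, and both passed the filter only through the control libraries. NECTIN3, a cell adhesion protein, averaged 8.37 ± 0.0351 FPKM with K178R, 7.96 ± 0.314 with wild type and 20.6 ± 0.191 in control. Nearest to CAVIN3 were FRAS1 (0.112), SUSD2 (0.129), ANXA1 (0.13) and UPK3B (0.136). UPK3B averaged 0.28 FPKM with K178R, 0.18 with wild type and 1.14 in control. By FPKM it too lay further below control than its member, and it passed the filter only through the control libraries. ANXA1, a membrane-binding annexin, averaged 92.0 ± 1.27 FPKM with K178R, 90.2 ± 1.1 with wild type and 154.0 ± 0.526 in control. CAVIN1 and EHD2 had no group difference of 0.5 or more and were not matched. These genes were picked by their values, so no test is given for them.

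The genes around the caveolins on chromosome 7 run, in order, MDFIC, TFEC, TES, CAV2, CAV1, MET, CAPZA2 and ST7. Those outside the family were tested with limma over all 11445 genes, with Benjamini-Hochberg adjustment. TES, a focal adhesion protein, lies beside CAV2 on the side away from CAV1. TES read 23.8 and 23.7 FPKM with K178R, 28.1 and 28.9 with wild type, and 34.8 and 33.6 in control. It fell in both lines, by 0.51 with K178R (adjusted p = 6.67e-05, limma) and by 0.26 with wild type (adjusted p = 7.53e-04, limma). TES was also lower with K178R than with wild type (log2 -0.25, adjusted p = 0.00107, limma), the direction that CAV2 had and CAV1 did not. In that comparison 34.5% of all genes tested were lower and 10.4% higher. MET, the hepatocyte growth factor receptor on the other side of CAV1, fell with wild type by 0.15 (adjusted p = 0.00511, limma). With K178R its difference was -0.12 (adjusted p = 0.0207, limma), a call that ended without any single control or K178R library (adjusted p 0.0557 to 0.11). CAPZA2, an actin capping subunit, rose with wild type by 0.12 (adjusted p = 0.0082, limma), a call that ended under both other scalings. MDFIC and ST7 did not pass against control in either line, and TFEC was near 0 and not tested.

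**Figure D3:**
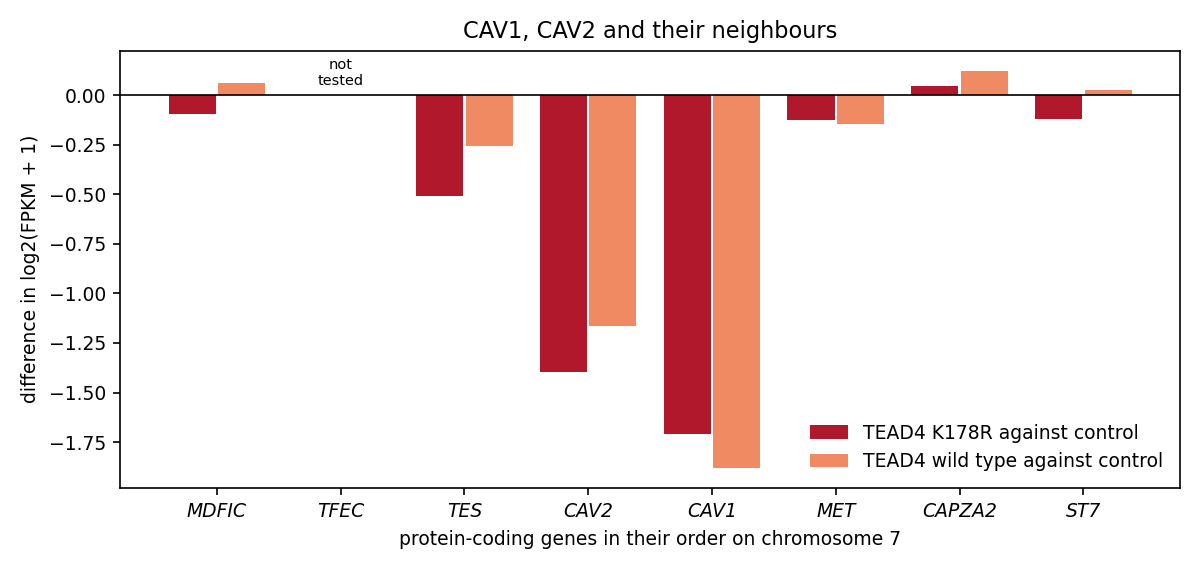
Difference in log2(FPKM + 1) against control (y axis) for K178R and wild type TEAD4 (bars) of CAV2, CAV1 and their 3 protein-coding neighbours on each side, in their order on chromosome 7 (x axis, not to scale). CAV1 reaches -1.88 and CAV2 -1.40, while TES reaches -0.51 and the others stay within 0.15 of 0.

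Among the neighbours of the other members were genes that rose with wild type TEAD4, as did 37.6% of all genes tested. STAT3, a signalling transcription factor beside CAVIN1 on chromosome 17, rose with wild type TEAD4 by 0.70 (adjusted p = 2.74e-05, limma), and with K178R its difference was 0.12 (adjusted p = 0.0781, limma). It was lower with K178R than with wild type (log2 -0.58, adjusted p = 1.03e-04, limma), whereas CAVIN1 was higher. ATP6V0A1, a proton pump subunit on the other side of CAVIN1, rose with wild type by 0.41 (adjusted p = 4.31e-04, limma). NOP53, a ribosome assembly factor beside EHD2 on chromosome 19, rose with wild type by 0.24 (adjusted p = 0.00103, limma). APBB1, an adaptor protein near CAVIN3 on chromosome 11, rose with wild type by 0.40 (adjusted p = 0.00705, limma). STAT5B and NAGLU near CAVIN1, and BICRA and SELENOW near EHD2, did not pass in any of the 3 comparisons without other scaling. After either other scaling BICRA was lower with wild type than in control, and higher with K178R than with wild type. SELENOW was higher with K178R than with wild type after median-of-ratios scaling. Other neighbours of these members passed in at least 1 comparison and are not listed.

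The lists below were chosen with earlier results of these data known, and the p-values of their genes do not allow for that choice. Other genes of the coat and neck were few. Of 10, 6 passed the filter. CAV3, the muscle caveolin, and EHD3 were listed at 0 in all libraries, CAVIN2 was at or below 0.057 FPKM, and CAVIN4, the muscle cavin, lay between 0.235 and 0.529 FPKM. In the wild type line 4 were higher and 0 lower by limma, where 37.6% of all genes were higher and 12.2% lower, with a median of 0.18 against 0.09 for all genes. In the K178R line 2 were higher and 1 lower, where 11.7% of all genes were higher and 11.1% lower, with a median of 0.14 against 0.0025. PACSIN1, an F-BAR protein that bends membranes, read 0.996 and 1.03 FPKM with K178R, 1.34 and 1.20 with wild type, and 0.868 and 0.74 in control, and rose with wild type (log2 0.33, SE 0.07, adjusted p = 0.00577, limma). PACSIN2, which shapes the caveolar neck, rose in both lines (log2 0.20, adjusted p = 0.0109, limma, with wild type and log2 0.17, adjusted p = 0.0348, limma, with K178R). The wild type call ended under both other scalings and the K178R call without either control library or K178R replicate 1. PACSIN3 read 16.2 and 16.2 FPKM with K178R, 20.1 and 21.1 with wild type, and 18.6 and 17.8 in control. It was lower with K178R than with wild type (log2 -0.32, SE 0.04, adjusted p = 8.7e-04, limma), the 1 call among these genes in that comparison, where 10.4% of all genes were higher and 34.5% lower. ROR1, a receptor described to hold CAVIN1 and CAV1 together, rose with wild type (log2 0.25, adjusted p = 0.0172, limma) and K178R (log2 0.29, adjusted p = 0.0183, limma), at 0.405 to 0.786 FPKM in all libraries, and both calls ended when single libraries were left out. EHD1 and EHD4, relatives of EHD2 in endocytic recycling, did not pass here in any comparison, though after either other scaling both were higher with K178R than with wild type. After median-of-ratios scaling the counts were 2 higher and 0 lower in the wild type line, and 2 higher and 1 lower for K178R against wild type. Over all genes that scaling gave 2564 higher and 2886 lower, and 2602 and 2257, in the same comparisons. Without either control or either wild type library, 2 were higher in the wild type line. In the K178R line the lower call was lost without any single control or K178R library, and the higher calls became 0 without either control library and 1 without either K178R library.

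Genes of caveolar uptake and actin coupling moved in both directions. Of 17, 16 were tested, with 4 higher and 4 lower in the wild type line, 3 higher and 4 lower in the K178R line, and 5 higher and 6 lower for K178R against wild type. The shares of all genes tested were 37.6% higher and 12.2% lower, 11.7% and 11.1%, and 10.4% and 34.5% in the same comparisons. After median-of-ratios scaling the counts of the list became 2 and 9, 3 and 5, and 7 and 1. Those of all genes were then 2564 and 2886, 1251 and 1364, and 2602 and 2257. Without control replicate 2 the wild type line had 2 higher, and without wild type replicate 2 it had 2 lower. Without either control library or K178R replicate 1 the K178R line had 2 lower. For K178R against wild type, 2 were higher and 3 lower without wild type replicate 2, and 3 higher and 2 lower without either K178R library. Medians were 0.0038 for wild type and -0.0097 for K178R against control, and -0.05 for K178R against wild type, where those of all genes were 0.09, 0.0025 and -0.08. FLNA, the actin crosslinker that binds CAV1, read 79.7 and 78.6 FPKM with K178R, 60.6 and 58.5 with wild type, and 103.8 and 104.2 in control. All 3 pairs were apart. FLNA fell with wild type by 0.79 (SE 0.03, adjusted p = 3.78e-06, limma) and with K178R by 0.39 (adjusted p = 1.11e-04, limma), and was higher with K178R than with wild type (log2 0.40, adjusted p = 1.03e-04, limma). ARHGAP26, a GTPase-activating protein of clathrin-independent uptake, read 2.50 and 2.47 FPKM with K178R, 3.03 and 2.97 with wild type, and 4.57 and 4.47 in control. It fell by 0.66 with K178R (adjusted p = 1.49e-04, limma) and by 0.46 with wild type (adjusted p = 3.6e-04, limma). FYN, a Src family kinase that phosphorylates CAV1, rose with wild type by 0.62 (adjusted p = 2.9e-04, limma) and with K178R by 0.40 (adjusted p = 0.00457, limma).

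Receptors and enzymes described in caveolae had 20 of 23 genes tested. In the wild type line 5 were higher and 3 lower, in the K178R line 2 higher and 4 lower, and for K178R against wild type 2 higher and 7 lower, with medians of 0.08, 0.02 and -0.06 against 0.09, 0.0025 and -0.08 over all genes. Of all genes tested, 37.6% were higher and 12.2% lower, 11.7% and 11.1%, and 10.4% and 34.5% in these comparisons. After median-of-ratios scaling 4 were higher and 6 lower in the wild type line, and 5 higher and 4 lower for K178R against wild type. Over all genes that scaling gave 2564 higher and 2886 lower, and 2602 and 2257, in the same comparisons. In that last comparison 4 were lower without wild type replicate 2, and 1 was higher without either wild type library or K178R replicate 2. GNAQ, the alpha subunit of the Gq protein, read 10.6 and 10.7 FPKM with K178R, 10.2 and 10.2 with wild type, and 6.83 and 6.44 in control. It rose in both lines, by 0.61 with K178R (adjusted p = 1.09e-04, limma) and 0.55 with wild type (adjusted p = 9.98e-05, limma). TGFBR2, a TGF-beta receptor, averaged 3.99 ± 0.0315 FPKM with K178R, 4.64 ± 0.237 with wild type and 6.17 ± 0.371 in control. It fell by 0.52 with K178R (adjusted p = 9.47e-04, limma) and by 0.34 with wild type (adjusted p = 0.00227, limma). ADCY6, an adenylyl cyclase, and BMPR2, a BMP receptor, rose with wild type by 0.63 and 0.42 (adjusted p = 1.41e-04 and 0.00137, limma) and were lower with K178R than with wild type (log2 -0.56 and -0.29, adjusted p = 3.37e-04 and 0.00778, limma). IGF1R, the IGF-1 receptor, rose with K178R by 0.47 (adjusted p = 0.00166, limma) and with wild type by 0.30 (adjusted p = 0.00453, limma). TFPI, an inhibitor of coagulation found in endothelial caveolae, fell with K178R by 0.44 (adjusted p = 0.00546, limma).

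Flotillins, stomatins and prohibitins are scaffolds of membrane domains outside caveolae. Of 10 genes 9 were tested, with 2 higher and 2 lower in the wild type line, 1 higher and 5 lower in the K178R line, and 0 higher and 4 lower for K178R against wild type. Over all genes tested, 37.6% were higher and 12.2% lower with wild type, 11.7% and 11.1% with K178R, and 10.4% and 34.5% for K178R against wild type. The medians of the list were 0.05, -0.11 and -0.09, against 0.09, 0.0025 and -0.08 over all genes. After median-of-ratios scaling the last comparison had 1 higher and 3 lower, where 2602 of all genes were higher and 2257 lower. Fewer genes of the list were lower in that comparison without K178R replicate 2. In the wild type line 1 was lower without any single control or wild type library. In the K178R line 3 were lower without either control library or K178R replicate 2, and 0 higher without control replicate 2 or K178R replicate 2. FLOT1 read 15.4 and 15.8 FPKM with K178R, 19.4 and 19.5 with wild type, and 19.0 and 18.3 in control. The K178R pair was the low one. FLOT1 fell with K178R by 0.24 against control (adjusted p = 0.00334, limma) and by 0.30 against wild type (adjusted p = 8.09e-04, limma). FLOT2 with K178R fell by 0.32 against wild type (adjusted p = 0.00123, limma) and by 0.22 against control (adjusted p = 0.00976, limma), the call against control ending without control replicate 2 or K178R replicate 1. STOM rose with wild type TEAD4 by 0.41 (adjusted p = 0.00393, limma) and with K178R by 0.31 (adjusted p = 0.0252, limma), the K178R call ending without control replicate 2 or K178R replicate 2. PHB fell in both lines, by 0.23 with K178R (adjusted p = 0.00104, limma) and 0.19 with wild type (adjusted p = 0.00103, limma).

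Clathrin coat and adaptor genes serve the other main route of uptake, and all 28 were tested. In the wild type line 16 were higher and 1 lower, where 37.6% of all genes tested were higher and 12.2% lower, with a median of 0.22 against 0.09 for all genes. With K178R 5 were higher and 0 lower, where 11.7% of all genes were higher and 11.1% lower, with a median of -7.5e-04 against 0.0025. For K178R against wild type 1 was higher and 13 lower, where 10.4% of all genes were higher and 34.5% lower, with a median of -0.13 against -0.08. After median-of-ratios scaling the counts of the list were 11 and 3, 5 and 0, and 2 and 9. Those of all genes were then 2564 and 2886, 1251 and 1364, and 2602 and 2257. The lower call in the wild type line was lost without control replicate 1 or either wild type library, 1 was lower in the K178R line without control replicate 2, and the higher call of K178R against wild type was lost without K178R replicate 1. EPN3, an epsin, read 2.99 and 3.03 FPKM with K178R, 4.90 and 4.74 with wild type, and 2.45 and 2.83 in control, and rose with wild type by 0.68 (adjusted p = 2.01e-04, limma). AP2B1, an AP-2 adaptor subunit, averaged 42.6 ± 0.653 FPKM with K178R, 50.5 ± 0.223 with wild type and 37.9 ± 0.262 in control, and rose with wild type by 0.40 (adjusted p = 6.3e-05, limma) and with K178R by 0.16 (adjusted p = 0.00622, limma). BIN1 and EPN2 rose with wild type by 0.44 and 0.41 (adjusted p = 0.00209 and 0.0022, limma). AAK1, the kinase of AP-2, and PICALM, a clathrin assembly protein, rose with K178R by 0.43 and 0.28 (adjusted p = 0.00241 and 0.00253, limma) and with wild type by 0.27 and 0.38 (adjusted p = 0.00664 and 3.2e-04, limma). HIP1, which links clathrin to actin, was lower with K178R than with wild type (log2 -0.46, adjusted p = 6.2e-04, limma).

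Over all 5 lists, 79 of 88 genes were tested. The counts below from all 6 libraries without other scaling stand beside shares over all genes tested. In the wild type line these were 37.6% higher and 12.2% lower. For K178R these shares were 11.7% and 11.1% against control, and 10.4% and 34.5% against wild type. In the wild type line 31 were higher and 10 lower, and after median-of-ratios scaling 21 and 21. In the wild type line 6 were lower without either wild type library. In the K178R line 13 were higher and 14 lower, with 9 lower without control replicate 1. For K178R against wild type 8 were higher and 31 lower. After that scaling 17 and 18 were, where 2602 of all genes were higher and 2257 lower. Fewer were higher in that comparison without wild type replicate 2 or either K178R library. The median was 0.10 for wild type, 0.02 for K178R and -0.07 for K178R against wild type, where those of all genes were 0.09, 0.0025 and -0.08. None of the 79 differed from control by as much as CAV1 or CAV2, the lowest being FLNA in the wild type line and ARHGAP26 in the K178R line.

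**Figure D4:**
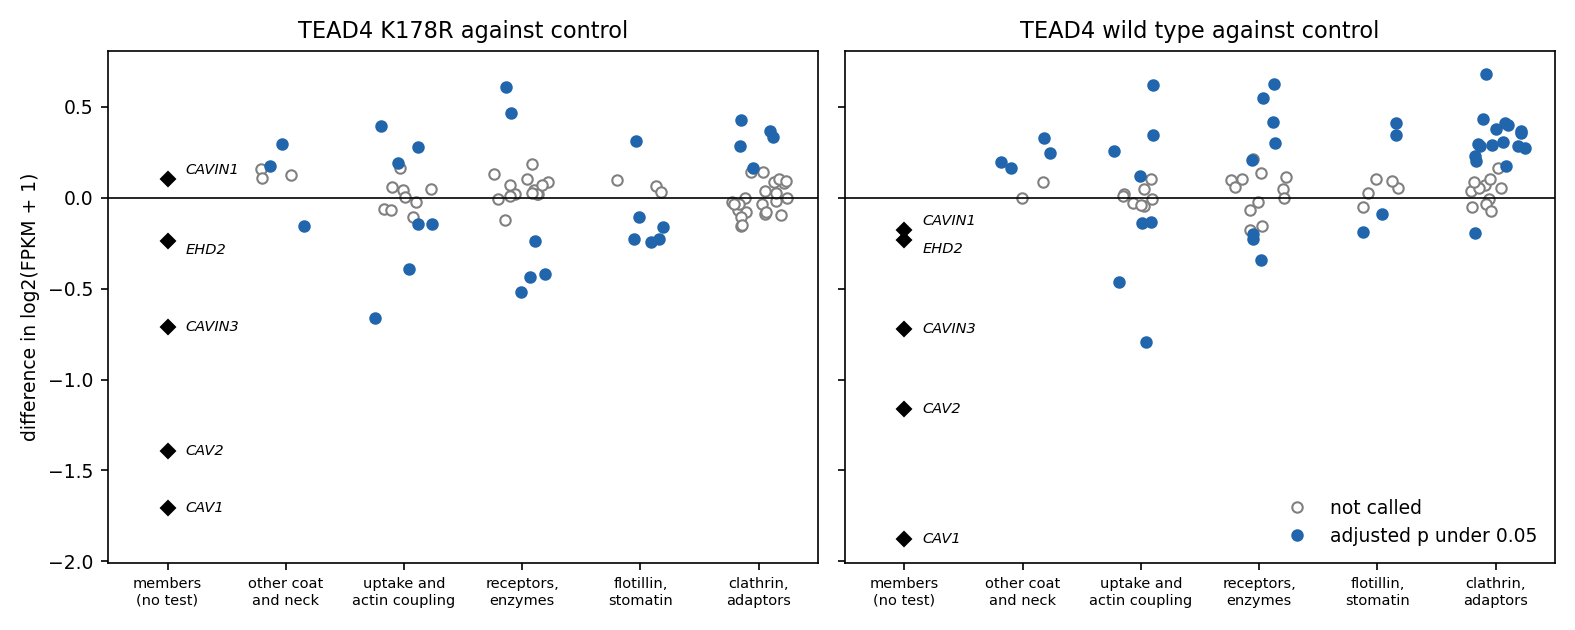
Difference in log2(FPKM + 1) against control (y axis) of the 5 members (diamonds, no test) and of the tested genes in 5 lists (x axis), for K178R on the left and wild type on the right, with filled points for limma adjusted p under 0.05. CAV1 and CAV2 lie below -1 in both panels, and the listed genes between -0.79 and 0.68.

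Cell types rich in caveolae were checked by their markers. Summed FPKM of 8 endothelial markers was 1.38 to 1.53 with K178R, 1.97 to 2.48 with wild type and 2.03 to 2.15 in control, with ESAM the 1 marker that passed the filter and 7 under 0.15 FPKM in every library. The sum of 8 fibroblast markers was 1.68 to 1.88 with K178R, 3.57 to 3.75 with wild type and 1.501 to 1.75 in control, with COL1A1 the 1 that passed and 3 at 0. Of 6 smooth muscle markers, DES, ACTA2 and SMTN passed, and the sum was 8.19 to 8.59 with K178R, 12.8 to 12.9 with wild type and 9.39 to 9.56 in control. The 6 adipocyte markers summed to at most 0.117 FPKM in any library. Of 6 leukocyte markers CD68 passed, and the sum was 1.32 to 1.35 with K178R, 2.94 to 3.18 with wild type and 3.18 to 3.70 in control. The part of any of these cells in the members' levels was not tested.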

How the data were processed

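RNA of 3 stable HCT116 lines was made into 6 libraries, 2 per line, with Illumina's TruSeq reagents, per the labels' protocols. The authors deposited 1 table of FPKM values per library, with 20030 gene rows. Bowtie 0.12.2 and the genome build hg18 are named per the submitters' processing notes. For the program that computed FPKM, its annotation, and how it used strand and multi-mapping reads, the entry is: not given in the sources used here. Of these rows, 4 with a repeated identifier were dropped, and 4066 of the 20026 kept were at 0 in every library.

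A gene entered the tests if 2 or more libraries read 0.5 FPKM or above, which 11445 genes met. limma 3.58.1 in R 4.3.3, with trend, was fitted to log2(FPKM + 1) of all 6 libraries, with group means as coefficients. The 3 contrasts were two-sided with Benjamini-Hochberg adjustment and a threshold of 0.05. The procedure was tested on simulated data in which a set of genes rose in the wild type line. That simulation held no shift of all genes, so it does not bear on the choice of scaling. All 3 groups share 1 estimate of the spread, since each has 2 libraries. The number of reads is unknown, so no interval for counting error is given, and n = 2 limits the precision. Relative depth, from the step of low values, lay between 0.915 and 1.05 of control replicate 1, though at most 4.5% of low genes shared the step, so no reads were recovered.

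The members and lists were chosen with earlier results of these data known, so no p is given for the members. The p-values of listed genes do not allow for this choice. The genes that could be named were all members and every other coat and neck gene. They also held up to 4 called genes of each list and comparison by size of difference. Added to these were 4 genes most like a member, and 3 protein-coding neighbours on each side from the RefSeq gene table (GRCh38.p14). Overlapping genes were read from GENCODE 29. Alternatives were median-of-ratios and upper-quartile scaling, another pseudocount (0.1), filters of 1 FPKM or none, no trend, a replicate block, averaged control libraries, and leaving out each library. One gene that this rule names is not reported here.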

Additional observations from a re-analysis of the deposited data

Results flagged for a closer look

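CAVIN1 lay on opposite sides of control in the TEAD4 lines, with both K178R libraries above and both wild type libraries below the control pair. Its difference from control was 0.10 with K178R and -0.18 with wild type TEAD4 on the log2(FPKM + 1) scale, and the difference between the lines was not tested, since the members were chosen with these values known.

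PACSIN3 was lower than control with K178R (log2 -0.16, adjusted p = 0.0283, limma) and higher with wild type (log2 0.17, adjusted p = 0.0109, limma), and the test between the lines passed (log2 -0.32, adjusted p = 8.7e-04, limma). The K178R call ended without any single control or K178R library (adjusted p 0.0551 to 0.147), and the wild type call ended under both other scalings (adjusted p 0.226 and 0.332).

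CDC42 was lower than control with K178R (log2 -0.14) and higher with wild type (log2 0.12), and lower with K178R than with wild type (log2 -0.26, adjusted p = 7.2e-04, limma). Against control the K178R call ended without either control library or K178R replicate 1 (adjusted p 0.0747 to 0.0792), and the wild type call without wild type replicate 2 or any 1 control library (adjusted p 0.0548 to 0.0632). The wild type difference turned to -0.0016 after median-of-ratios scaling, while the difference between the lines kept its call under every alternative run.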

How the results depend on the processing

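Pathway genes here are those of all 5 lists, which include the clathrin and flotillin lists and so reach beyond caveolae. After median-of-ratios scaling wild type against control had 2564 genes higher and 2886 lower, with 21 pathway genes lower, and after upper-quartile scaling 2757, 2654 and 18. K178R against wild type had 2602 higher and 2257 lower (pathway 17 and 18), and 2265 and 2510 (pathway 15 and 19). With median-of-ratios and upper-quartile scaling the wild type difference from control was -2.0005 and -1.99 for CAV1, -1.28 and -1.27 for CAV2, -0.30 and -0.28 for CAVIN1, and -0.35 and -0.33 for EHD2. For K178R against wild type it was 0.28 and 0.26 for CAV1, -0.12 and -0.14 for CAV2, 0.39 and 0.37 for CAVIN1, 0.099 and 0.083 for CAVIN3, and 0.10 and 0.082 for EHD2. As a log2 ratio of mean FPKM, CAV2 in the wild type line was -1.21. Median-of-ratios scaling turned the sign of CDC42 (-0.0016) and GNAI2 (-0.12, and -0.10 with upper quartiles) for wild type against control, and of PHB2 (0.091), STOML2 (0.0039) and CAPZA2 (0.031, and 0.010 with upper quartiles) for K178R against wild type. These scalings subtract a shift of all genes by construction.

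With the control libraries averaged as 1, K178R against control had 660 genes higher and 568 lower (pathway 8 and 9). Leaving out each library in turn gave 733 to 1285 higher and 633 to 1259 lower there, with the low counts where a control or K178R library was lost, and 9 to 14 pathway genes lower. The range was 6 to 10 pathway genes lower for wild type against control, and 4 to 8 higher for K178R against wild type. Fewer samples are left in each of these fits. Of 135 values of member differences under the alternatives, 19 moved by 1 SD between replicates or more, and of 2727 for named genes, 195 lost a call and 40 gained one. With 2 libraries per line, leaving out 1 cannot shift a member difference beyond that SD, and a replicate block cannot shift it at all. The share that moved is therefore no measure of stability. Those that moved came from both other scalings in the comparisons with the wild type line, and from CAV2 as a log2 ratio.

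The replicate numbers share only a number: deviations of same-numbered libraries correlated at 0.0154, -0.0311 and 0.0323. With the replicate number as a block, pathway genes higher and lower were 32 and 10 for wild type, 12 and 14 for K178R, and 8 and 28 for K178R against wild type. The counts of all genes with that block are not given here, so nothing is read from these. In this balanced layout a replicate block cannot change a difference of means, so it bears on calls alone.

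With 2 libraries per line, no reads known and 1 line per construct, line and construct cannot be told apart, and the depth behind genes near 1 FPKM, such as ROR1 and PACSIN1, is unknown.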
